A study of Homo sapiens with 8 samples.

Results

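The 4 kinases that phosphorylate the translation initiation factor eIF2 alpha and 4 genes that act next to them were measured by RNA-seq in 2 human renal cell carcinoma (RCC) cell lines cultured with or without branched-chain amino acids (BCAAs: isoleucine, leucine and valine). The 8 genes are EIF2AK1 (the kinase HRI), EIF2AK2 (PKR), EIF2AK3 (PERK), EIF2AK4 (GCN2), GCN1, IMPACT, PPP1R15B and DELE1. They were taken by their Ensembl identifiers from the 27776 genes listed in either of the 2 deposited tables, 1 table per cell line, and all 8 were listed in both. The question was how much mRNA of these sensors each line carried, how it moved with BCAA, and how that stood beside the amino acid response genes of CAKI-1, which moved less than those of 769-P.

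GCN2 is the kinase that senses amino acid shortage: uncharged tRNA and stalled ribosomes activate it with the help of GCN1, a large protein that binds ribosomes. The other kinases read other stresses, namely double-stranded RNA (PKR), unfolded protein in the endoplasmic reticulum (PERK), and lack of heme or mitochondrial stress (HRI). All of them phosphorylate eIF2 alpha, which blocks the exchange factor eIF2B, lowers general translation and favors translation of the transcription factor ATF4, whose targets include amino acid transporters and synthetases. A phosphatase built on PPP1R15A or PPP1R15B reverses the mark.

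Both lines are labeled as clear cell RCC. 769-P cells were routinely kept in RPMI 1640 and CAKI-1 cells in MEM. For the experiment, cells of each line spent 16 hours with BCAA (leucine and isoleucine at 0.38 mM each, valine at 0.17 mM) or without it, and the depleted medium was built from RPMI 1640 powder lacking amino acids plus dialyzed serum. The sources used here do not say whether the amino acids other than BCAA were added back. Each of the 4 groups (769-P with BCAA, 769-P without BCAA, CAKI-1 with BCAA, CAKI-1 without BCAA) holds 2 libraries, so each line stands for itself alone. No genotype change was made in these cells. The study describes its in vitro data as coming from independent experiments, but nothing ties these libraries to separate cultures, and the replicate number it gives for the RNA-seq is larger than the 2 libraries per group analysed here. The p-values therefore measure the spread between these libraries, which may be technical.

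Between 30979773 and 64256834 reads per library lay on listed genes, and in 769-P the libraries with BCAA were the deeper ones (64256834 and 55829324 reads against 39062721 and 40130258). The renal carcinoma markers PAX8, KRT8, KRT18 and VIM were present in every library, whereas CA9 was listed in neither table. The fibroblast marker COL1A1 stood at 254 to 376 RPKM (recovered reads per kilobase of exon, scaled to equal totals of reads on listed genes) in CAKI-1 and at 0.31 to 0.45 in 769-P, and PDGFRB at 3.23 to 5.72 and 0.097 to 0.447. The leukocyte and endothelial markers PTPRC, CD68, PECAM1 and CDH5 had at most 12 reads in any library or were not listed. The part of these marker differences in the results was not tested.

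Promoter sequences were available for 7 of the 8 genes from RefSeq (GRCh38.p14, 250 bases before to 50 after the gene start), and 2 of them are shown because they hold a motif tied to the pathways discussed here. The C/EBP-ATF response element TTGCATCA, through which ATF4 acts on its targets, was searched on both strands (TGATGCAA on the other). It lay in 304 of 35116 promoters (0.866%) and, of the 7, in PPP1R15B alone. The interferon response motif GAAANNGAAA, searched on both strands after the sequences had been seen, lay in 1255 of 35116 promoters (3.57%) and, of the 7, in EIF2AK2 alone. Both sequences are printed 5′ to 3′ on the minus strand, with the match in capitals. The PPP1R15B stretch is chr1:204411818-204412067, the 250 bases before the gene start, and its match begins 227 bases before the start. The EIF2AK2 stretch is chr2:37156971-37157230, from 250 bases before to 10 after the start, and its match begins 6 bases before the start.
PPP1R15B: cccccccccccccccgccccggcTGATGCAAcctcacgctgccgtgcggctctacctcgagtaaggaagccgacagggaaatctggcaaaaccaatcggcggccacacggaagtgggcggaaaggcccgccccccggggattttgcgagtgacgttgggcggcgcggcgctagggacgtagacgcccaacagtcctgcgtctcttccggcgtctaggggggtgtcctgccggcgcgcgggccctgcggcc
EIF2AK2: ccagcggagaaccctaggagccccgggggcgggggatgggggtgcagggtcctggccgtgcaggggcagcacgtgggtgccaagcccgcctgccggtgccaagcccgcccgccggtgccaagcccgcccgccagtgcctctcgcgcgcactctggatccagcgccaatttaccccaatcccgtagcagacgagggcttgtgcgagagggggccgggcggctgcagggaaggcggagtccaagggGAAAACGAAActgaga
A match is a description of these letters and no evidence of binding. The same 8 letters of the ATF4 element were found in the promoters of CARS1, CEBPG and CHAC1 among the 20 of 24 ATF4 readout genes with an entry, and the interferon motif in 5 of the 7 interferon-stimulated genes with an entry.

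Per length of exon, HRI was the most abundant kinase mRNA in both lines and PERK the least. Levels are given as RPKM over the 4 libraries of a line, computed from the reads recovered from each table. The tables were normalized separately, so levels are set side by side between lines with no test. In 769-P, EIF2AK1 lay at 30.0 to 35.0 RPKM and GCN1 at 27.9 to 34.3, ranges that overlap. PPP1R15B followed at 23.7 to 25.5, below every GCN1 value. IMPACT (11.6 to 17.7), EIF2AK2 (12.0 to 13.2), DELE1 (10.5 to 12.4) and EIF2AK4 (9.89 to 12.0) formed a group in which each range overlapped that of its neighbor. EIF2AK3 stood apart at 1.92 to 2.57.

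The order was nearly the same in CAKI-1. There EIF2AK1 lay at 25.2 to 29.2 RPKM, GCN1 at 21.8 to 27.4 and PPP1R15B at 17.2 to 24.8, each overlapping the next. EIF2AK2 (9.002 to 11.9), DELE1 (7.99 to 11.6), EIF2AK4 (8.34 to 9.48) and IMPACT (6.42 to 9.64) again overlapped in a chain, and EIF2AK3 was lowest at 3.05 to 4.21. The place of GCN2 depends on the length used: its merged exons span 11957 bases, and over the longest coding transcript instead EIF2AK4 lay at 21.5 to 26.2 RPKM in 769-P and 18.1 to 20.6 in CAKI-1, the fourth of the 8 genes in both.

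The mean EIF2AK4 level in CAKI-1 was 0.798 of that in 769-P with BCAA and 0.846 without. Its partner GCN1 stood at 0.799 and 0.769 of the 769-P level with and without BCAA. IMPACT, which competes for GCN1 and limits GCN2, was the gene with the lowest ratio, 0.585 with BCAA and 0.544 without. EIF2AK3 was the single gene of the 8 with more in CAKI-1, at 1.55 times the 769-P level with BCAA and 1.62 times without. The remaining ratios lay between 0.720 (EIF2AK2 without BCAA) and 0.979 (PPP1R15B with BCAA). No such ratio was computed over all genes, so a level particular to these genes was not shown.

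A share within a library does not depend on how a table was scaled, so the make-up of the kinase mRNA could be compared between lines. It does depend on the gene length used, here that of merged exons. Over the longest coding transcript instead, the median of EIF2AK4 was above that of EIF2AK2. It was 23.3 against 14.0 RPKM in 769-P and 19.2 against 10.7 in CAKI-1. Of the summed reads per kilobase of the 4 kinases, EIF2AK4 made up 18.5% ± 0.461 (SD, n = 4 libraries) in 769-P and 17.9% ± 0.560 (n = 4) in CAKI-1, with ranges of 18.1% to 19.2% and 17.3% to 18.4% that overlap (exact two-sided permutation test, p = 0.171). EIF2AK3 made up 3.94% ± 0.274 in 769-P and 7.31% ± 0.524 in CAKI-1, with no overlap (3.56% to 4.21% against 6.68% to 7.81%). Its exact permutation p of 0.0286 is the smallest that 4 against 4 libraries allow, and after Benjamini-Hochberg adjustment over the 4 kinases it was 0.114. EIF2AK1 held 55.5% ± 0.774 and 54.3% ± 0.760 (exact permutation test, p = 0.0857, adjusted 0.152), and EIF2AK2 22.0% ± 1.21 and 20.5% ± 1.02 (p = 0.114, adjusted 0.152). No share passed after adjustment. Each set of 4 libraries mixes both treatments, and the direction turned within a treatment for EIF2AK4 without BCAA (18.2% in 769-P and 18.3% in CAKI-1, n = 2 each) and for EIF2AK2 with BCAA (21.1% and 21.3%). These tests compare the libraries of a single line with those of another.

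**Figure D1:**
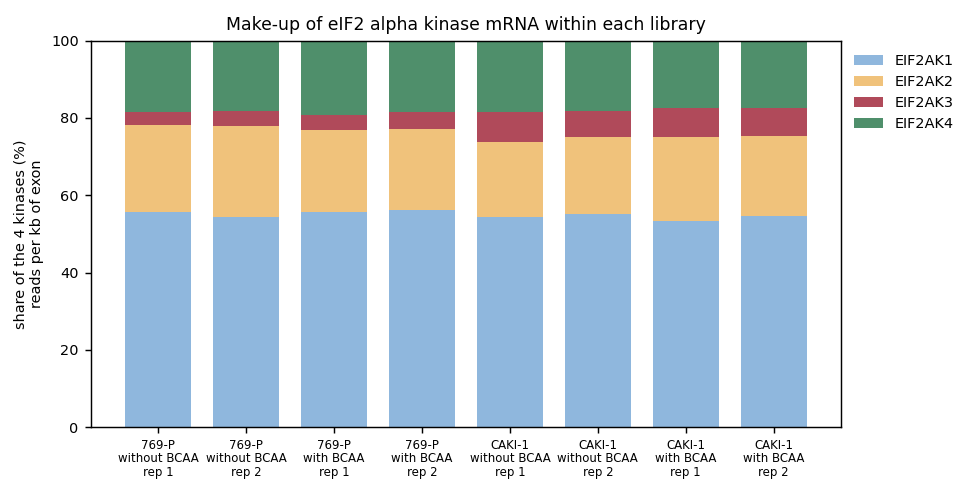
Share of each eIF2 alpha kinase in the summed reads per kilobase of merged exon of the 4 kinases. The y axis gives percent and the x axis the 8 libraries. EIF2AK1 takes over 53% in every bar, EIF2AK4 17.3% to 19.2%, and the EIF2AK3 band is wider in the 4 CAKI-1 libraries.

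The BCAA effect was tested within each table by limma on log2(value + 1), with Benjamini-Hochberg adjustment over all genes tested and a call at an adjusted p under 0.05. A value here is the reads of a gene divided by the size factor of its library, and a positive log2 fold change means more mRNA with BCAA. In 769-P, 3 of the 8 genes rose with BCAA and 2 fell, where 20.3% of 22391 tested genes were called higher and 18.2% lower. In CAKI-1, 4 rose and 2 fell, where 10.8% of 21347 tested genes were called higher and 9.05% lower. With a mean value of 10 or more, 55.6% of genes were called in 769-P and 28.6% in CAKI-1, in either direction. For the difference between the lines, described below, that share was 29.9%. The lowest value of the 8 genes in any library was 506, whereas the shares over all genes, here and below, include many lower genes. In 769-P the median size of the log2 fold change over the 8 genes was 0.18, below the 0.30 of all genes whose mean value was 100 or more. In CAKI-1 it was 0.28, above the 0.19 of all such genes. The 2 genes that fell, IMPACT and DELE1, fell in both lines. Leaving out 1 library cut the calls over all genes as well: 16.8% to 19.0% of genes were then called in 769-P, and in CAKI-1 3.04% and 9.94% without replicate 1 and 2 with BCAA, and 0% and 1.29% without replicate 1 and 2 of the group without BCAA. A call lost without that replicate 1, here and below, is therefore not particular to a gene. A call lost without that replicate 2 is hardly more so. The cause of such losses was not tested. In these bulk libraries of a single cell line each, a change in all cells and a change in some of them cannot be told apart.

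**Figure D2:**
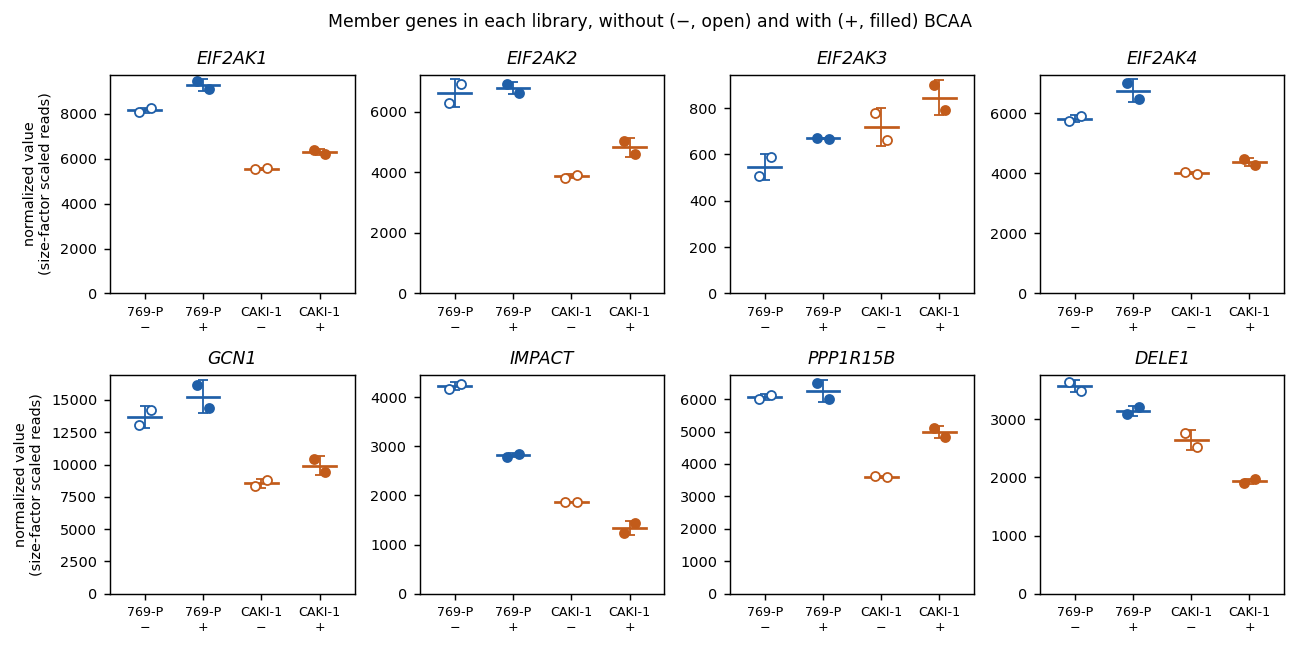
Normalized value (reads divided by the size factor of the library, y axes from 0) of each gene in each library, without (open) and with (filled) BCAA. Points are the 2 libraries of a group, the wide line is their mean and the bar its SD; the tables of the 2 lines were normalized separately. IMPACT and DELE1 are lower with BCAA in both lines, and PPP1R15B is higher in CAKI-1.

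EIF2AK4 (chr15:39934146-40035591, plus strand) encodes GCN2 itself. In 769-P its values were 7013 and 6469 with BCAA against 5736 and 5905 without. Both libraries with BCAA were above both without, and the log2 fold change was 0.21 (SE 0.051, adjusted p = 0.0058). In CAKI-1 the values were 4465 and 4287 with BCAA against 4037 and 3976 without, again with no overlap, and a log2 fold change of 0.13 (SE 0.058) that did not pass (adjusted p = 0.165). The effect in 769-P minus that in CAKI-1 was 0.08, with a 95% interval of -0.08 to 0.25 (adjusted p = 0.494), so a difference between the lines was not shown. In 769-P the adjusted p of EIF2AK4 was 0.104 when replicate 1 with BCAA was left out, and 0.172 or 0.125 when replicate 1 or 2 without BCAA was.

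GCN1 (chr12:120127203-120194710, minus strand), the ribosome-binding activator of GCN2, had values of 16153 and 14345 with BCAA and 13058 and 14258 without in 769-P. The groups barely separated, and the log2 fold change of 0.16 (SE 0.059) missed the threshold (adjusted p = 0.0553). In CAKI-1 it rose from 8311 and 8788 to 10429 and 9389, a log2 fold change of 0.21 (SE 0.064, adjusted p = 0.0390). Neither call is firm: 5 of 11 other settings called GCN1 in 769-P, and 5 of 11 lost it in CAKI-1. With any 1 of the 4 CAKI-1 libraries left out, its log2 fold change in CAKI-1 was 0.14 to 0.29. The effects differed by -0.05 between lines (95% interval -0.26 to 0.15).

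IMPACT (chr18:24426616-24453535, plus strand), the inhibitor of GCN2, showed the clearest change. Its values in 769-P were 2791 and 2850 with BCAA against 4165 and 4278 without. All 4 values were separated by treatment, and IMPACT fell by 33.2%, a log2 fold change of -0.58 (SE 0.051, adjusted p = 2.1e-06). In CAKI-1 the values were 1242 and 1444 with BCAA against 1874 and 1863 without. Here too the groups did not overlap, and IMPACT fell by 28.1%, a log2 fold change of -0.48 (SE 0.082, adjusted p = 0.0018). The effects differed by -0.10 (95% interval -0.31 to 0.11, adjusted p = 0.526), so no difference between the lines was shown. In 769-P the call held without any 1 library (adjusted p from 0.0188 to 0.0244). In CAKI-1 the adjusted p was 0.0660 without replicate 1 with BCAA, and 0.180 and 0.127 without replicate 1 and replicate 2 of the group without BCAA.

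EIF2AK1 (chr7:6022244-6059230, minus strand) encodes HRI. It rose in 769-P from 8076 and 8246 to 9475 and 9101 (log2 fold change 0.19, SE 0.044, adjusted p = 0.0049) and in CAKI-1 from 5527 and 5576 to 6390 and 6215 (0.18, SE 0.055, adjusted p = 0.0386). In neither line did the groups overlap. The effects differed by 0.004 on the log2 scale, with a 95% interval of -0.14 to 0.15. The CAKI-1 call was lost in 5 of 11 other settings and without any 1 of its 4 libraries (adjusted p from 0.0758 to 0.256), and the 769-P call without replicate 1 with BCAA (0.0776) or without replicate 1 (0.127) or 2 (0.0964) of the group without BCAA. HRI shares 532 exonic bases with AIMP2 on the opposite strand, and since the strand setting of the counting is not given in the sources used here, reads of the 2 genes there may be mixed.

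DELE1 (chr5:141923808-141942047, plus strand) relays mitochondrial stress to HRI. In CAKI-1 it had 1902 and 1965 with BCAA and 2769 and 2522 without. The groups were well apart, and DELE1 fell by 26.9% (log2 fold change -0.45, SE 0.070, adjusted p = 9.997e-04). In 769-P it fell less, from 3643 and 3494 to 3085 and 3208 (-0.18, SE 0.053, adjusted p = 0.0170). The difference of the effects was 0.27 (SE 0.087, 95% interval 0.08 to 0.46, adjusted p = 0.0412). That difference did not pass with the replicate block (adjusted p = 0.0823) or without any 1 of 6 libraries, all 4 of 769-P and replicate 1 of each CAKI-1 group (adjusted p from 0.0612 to 0.168). The 769-P call was lost with median centering (0.0831) and without any 1 of its libraries (0.0907 to 0.169), and the CAKI-1 call without replicate 1 with BCAA (0.0846) or replicate 1 (0.143) or 2 (0.0691) without BCAA.

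EIF2AK2 (chr2:37099210-37157065, minus strand), the kinase PKR and itself an interferon-stimulated gene, had values of 6917 and 6637 with BCAA and 6286 and 6934 without in 769-P. These overlap, and the log2 fold change was 0.04 (SE 0.054, adjusted p = 0.639). In CAKI-1 it rose from 3827 and 3912 to 5047 and 4602, a fold change of 1.25 (log2 0.32, SE 0.064, adjusted p = 0.0048). The effects differed by -0.28 (SE 0.086, 95% interval -0.47 to -0.09, adjusted p = 0.0343), which did not pass with the replicate block (0.0643), with median centering (0.0779) or without any 1 of 6 libraries (0.0529 to 0.171, all but replicate 1 of 769-P without BCAA and replicate 2 of CAKI-1 with BCAA). The CAKI-1 call did not pass with quantile normalization (0.0508), without replicate 1 with BCAA (0.0907) or replicate 1 (0.201) or 2 (0.145) without BCAA. EIF2AK2 shares 436 exonic bases with genes on the opposite strand.

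EIF2AK3 (chr2:88556741-88627576, minus strand), the endoplasmic reticulum kinase PERK, was the gene with the fewest reads, 407 to 951 per library. Its values in 769-P were 672 and 668 with BCAA against 506 and 587 without. The groups did not overlap, and the log2 fold change was 0.30 (SE 0.098, adjusted p = 0.0311). In CAKI-1 the values were 901 and 791 with BCAA against 777 and 661 without, a log2 fold change of 0.24 (SE 0.105) that did not pass (adjusted p = 0.153). The effects differed by 0.06, with a wide 95% interval of -0.27 to 0.39. The 769-P call was lost without any 1 of the 4 libraries (adjusted p from 0.0569 to 0.265), and in 4 of 11 other settings, among them equal depth (0.0552). EIF2AK3 shares 819 exonic bases with antisense genes.

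PPP1R15B (chr1:204403387-204411791, minus strand) encodes the constitutive subunit that brings protein phosphatase 1 to eIF2 alpha. It gave the largest difference between the lines among the 8 genes. In 769-P its values overlapped, 6495 and 5999 with BCAA against 6004 and 6138 without (log2 fold change 0.04, SE 0.051, adjusted p = 0.588). In CAKI-1 they did not, at 5107 and 4847 with BCAA against 3616 and 3584 without. PPP1R15B rose there by 38.2% (log2 fold change 0.47, SE 0.059, adjusted p = 2.8e-04). The difference of the effects was -0.43 (SE 0.076, 95% interval -0.59 to -0.26, adjusted p = 0.0013), and it passed in all 10 other settings and without any 1 of the 8 libraries. The rise within CAKI-1 passed in all 11 other settings, with log2 fold changes of 0.43 to 0.50 when 1 library was left out. It did not pass without replicate 1 (0.47, adjusted p = 0.131) or 2 (0.46, 0.0775) of the group without BCAA, the fits in which 0% and 1.29% of all genes were called. Of all genes tested in both tables, 21.1% differed between the lines in their BCAA effect, and 3 of the 8 genes did (PPP1R15B, EIF2AK2 and DELE1).

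**Figure D3:**
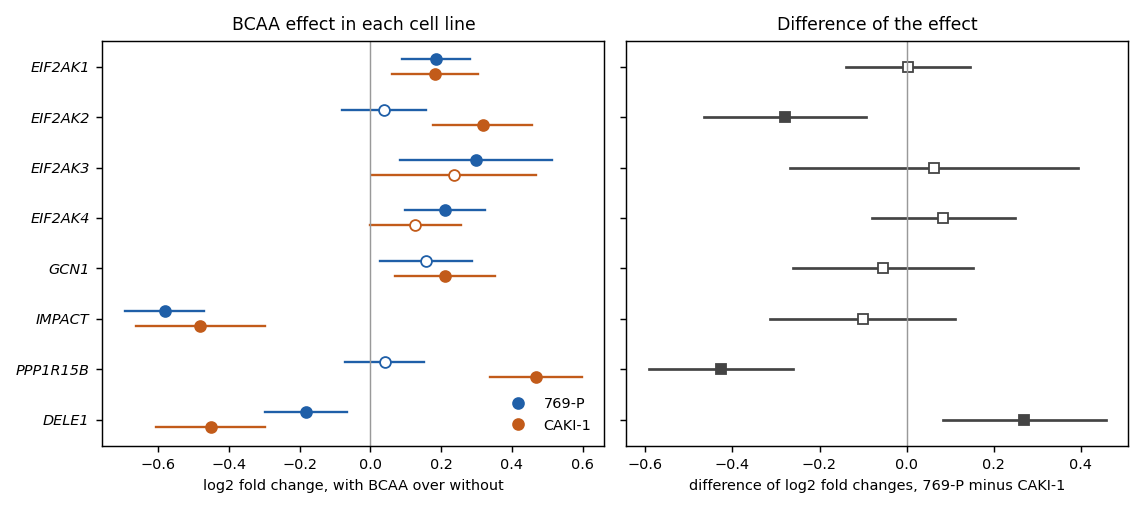
Left, log2 fold change with BCAA over without (x axis) for each gene in 769-P and CAKI-1; right, the effect in 769-P minus that in CAKI-1. Points are limma estimates, lines their 95% intervals, and filled points passed an adjusted p under 0.05. EIF2AK4 and IMPACT have intervals of the difference that include 0, while those of EIF2AK2, PPP1R15B and DELE1 do not.

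The ATF4 readouts, 24 genes known to respond to ATF4, moved by far more than the 8 genes in 769-P. In 769-P, 22 of 24 fell with BCAA and none rose, where 18.2% of all genes fell and 20.3% rose. The median log2 fold change was -2.07 beside -0.02 over all genes. In CAKI-1, 10 fell, 2 rose and 12 did not pass, where 9.05% of all genes fell and 10.8% rose. The median there was -0.22 beside -0.01 over all genes. For 22 of the 24 the effect in 769-P was the more negative by the test of the difference. Of all genes, 21.1% passed that test, in either direction. ASNS, which makes asparagine, fell by 2.26 on the log2 scale in 769-P and by 0.40 in CAKI-1. CHAC1, which degrades glutathione, fell by 3.74 in 769-P and had a log2 fold change of -0.26 in CAKI-1 that did not pass. SLC7A5, a transporter of large neutral amino acids including BCAAs, fell by 2.80 in 769-P and rose by 0.44 in CAKI-1. ATF4 itself fell by 0.97 and 0.43. The 769-P count was 21 or 22 without any 1 library. In CAKI-1 the 10 falling genes became 2 without replicate 1 with BCAA, where 3.04% of all genes were called, and 0 without replicate 1 or replicate 2 of the group without BCAA, where 0% and 1.29% were. At an unadjusted p under 0.05 in limma, 11, 10 and 7 of the readouts were lower in these 3 fits. The 2 rising ones became 0 or 1.

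Beside this span, the estimates of the BCAA effect on the GCN2 genes lay close together in the 2 lines. The log2 fold change of EIF2AK4 was 0.21 and 0.13, that of GCN1 0.16 and 0.21 and that of IMPACT -0.58 and -0.48, in 769-P and CAKI-1. For none of these 3 genes did the effect pass the test of a difference between the lines. Their levels, set side by side with no test, were all lower in CAKI-1. As a part of the 769-P level with and without BCAA, they were 0.798 and 0.846 for EIF2AK4 and 0.799 and 0.769 for GCN1. For IMPACT they were 0.585 and 0.544. Whether the levels of these 3 genes have a part in the weaker response of CAKI-1 was not tested. These are mRNA levels, and kinase activity and phosphorylated eIF2 alpha were not measured here.

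**Figure D4:**
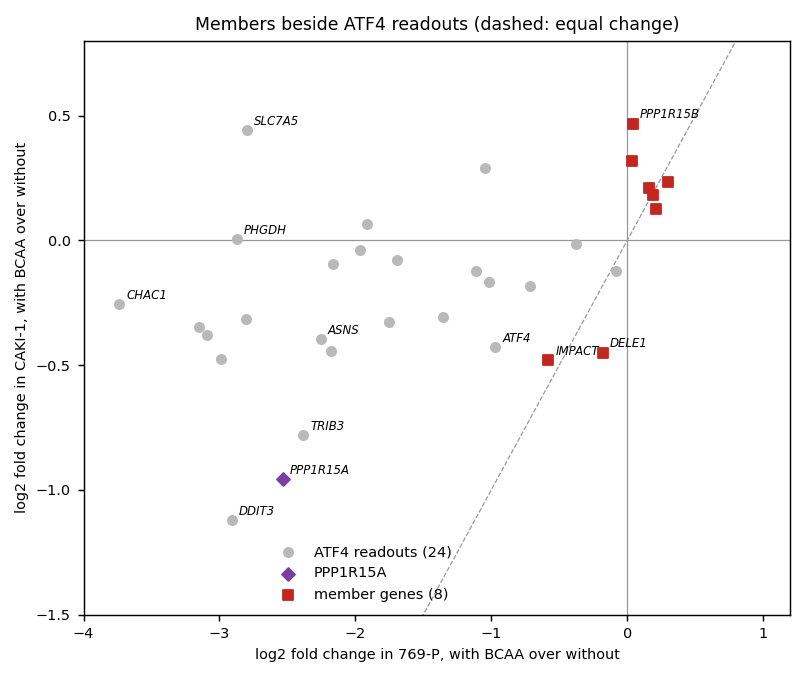
Log2 fold change with BCAA over without in 769-P (x axis) and in CAKI-1 (y axis, drawn to a narrower span) for the 8 genes (squares), 24 ATF4 readouts (circles) and PPP1R15A (diamond). The squares lie within 0.6 of 0 on both axes, while the circles reach -3.74 on the 769-P axis and -1.12 on the CAKI-1 axis.

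The inducible counterpart of PPP1R15B behaved differently from it. PPP1R15A (GADD34), which is itself induced through ATF4, fell by 2.53 on the log2 scale in 769-P (SE 0.060, adjusted p = 6.7e-11) and by 0.96 in CAKI-1 (SE 0.108, adjusted p = 1.2e-04), and the difference between the lines was -1.58 (adjusted p = 5.5e-06). Of the 4 phosphatase genes beside PPP1R15B, 1 rose and 2 fell in 769-P, and 1 fell in CAKI-1, where 20.3% of all genes rose and 18.2% fell in 769-P and 9.05% fell in CAKI-1. The catalytic subunit gene PPP1CC rose in 769-P (0.39) and PPP1CB fell (-0.32), while in CAKI-1 their log2 fold changes were 0.12 and -0.06 and did not pass. PPP1CA was at -0.02 and -0.003, not called in either line.

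The substrate and its exchange factor changed modestly. EIF2S1, which encodes eIF2 alpha, rose in both lines (0.31 in 769-P and 0.21 in CAKI-1), as did CDC123, the assembly factor of eIF2 (0.21 and 0.24). EIF2S3, the gamma subunit gene, fell in both (-0.32 and -0.37). EIF2S2 fell in 769-P (-0.17) and was at -0.04 in CAKI-1, not called. None of these 4 genes differed between the lines by the test of the difference, which 21.1% of all genes passed.

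Of the 5 genes of eIF2B, the factor that phosphorylated eIF2 alpha inhibits, 4 rose in 769-P and 1 in CAKI-1, with medians of 0.27 and 0.02, where 20.3% and 10.8% of all genes rose. The line difference passed for 4 of the 5, in both directions, and for 21.1% of all genes. EIF2B1 rose in 769-P (0.52, adjusted p = 8.1e-06) and was at 0.09 in CAKI-1, a difference of 0.43 (adjusted p = 0.0015). EIF2B3 was at 0.14 in 769-P and rose in CAKI-1 (0.53, adjusted p = 0.0024), a difference of -0.39 (adjusted p = 0.0394). EIF2B4 and EIF2B5 rose in 769-P (0.22 and 0.33) and had log2 fold changes of -0.21 and 0.02 in CAKI-1.

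**Figure D5:**
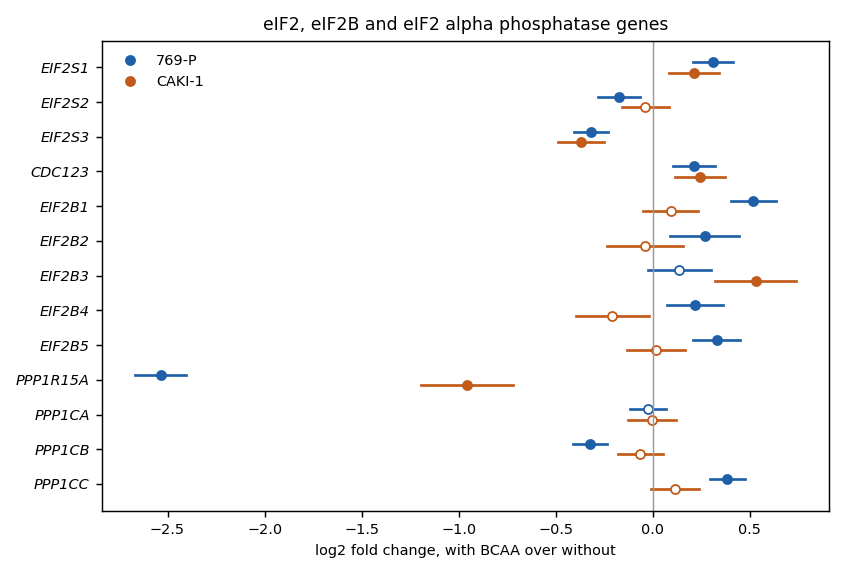
Log2 fold change with BCAA over without (x axis) of eIF2, eIF2B and eIF2 alpha phosphatase genes in 769-P and CAKI-1. Points are limma estimates, lines their 95% intervals, and filled points passed an adjusted p under 0.05. PPP1R15A lies far to the left of every other gene in both lines, and 4 of the 5 eIF2B genes are filled in 769-P and 1 in CAKI-1.

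Among the genes that feed GCN2, those of the ribosomal stalk, which can activate the kinase, fell in both lines. Of the 6 genes in this list, 4 fell and 1 rose in 769-P and 4 fell in CAKI-1, beside 18.2% of all genes lower and 20.3% higher in 769-P and 9.05% lower in CAKI-1. RPLP0 fell by 0.38 and 0.40, RPLP1 by 0.38 and 0.32, and RPLP2 by 0.15 and 0.30 in 769-P and CAKI-1. EEF1A1, the elongation factor that carries charged tRNA and binds GCN2, fell by 0.78 and 0.56. ABCF3, a relative of the yeast GCN2 partner Gcn20, rose in 769-P (0.18) and was at 0.07 in CAKI-1, and MAP3K20, the kinase that senses collided ribosomes, was called in neither line (-0.06 and 0.08). None of the 6 differed between lines by the test of the difference in limma, with EEF1A1 closest (-0.21, adjusted p = 0.0512). Of all genes, 21.1% passed that test.

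The partners of the other kinases gave scattered calls. TARBP2, an inhibitor of PKR, rose in both lines (0.62 and 0.40), and ADAR, which edits double-stranded RNA, fell in 769-P (-0.19) and was at 0.09 in CAKI-1. The PKR activator gene PRKRA was called in neither line (-0.03 and -0.11). DNAJC3, which inhibits PKR and PERK, rose in 769-P (0.22) and was at 0.16 in CAKI-1. HSPA5, the chaperone that holds PERK inactive, and NCK1 fell in 769-P (-0.24 and -0.25) and did not pass in CAKI-1 (-0.13 and -0.06). OMA1, the protease that cleaves DELE1, fell in CAKI-1 (-0.39, adjusted p = 0.0296) and was at -0.22 in 769-P, not called, and YME1L1 was called in neither (0.04 and 0.11).

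The interferon-stimulated genes described beside EIF2AK2 split in direction. In 769-P, where EIF2AK2 was not called, OAS1, OAS3 and IFIT1 rose (0.77, 0.52 and 1.197). In CAKI-1, where it rose, OAS3 rose as well (0.60) and IFIT2, IFIT3 and MX1 fell (-0.58, -0.35 and -0.47). ISG15 was called in neither line (0.20 and -0.10). OAS2 in 769-P and IRF9 in both lines had mean values under 14.

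Likeness between genes was described over the 8 libraries of both lines together. After subtracting the mean of its line, EIF2AK4 followed EIF2AK1 across the 8 libraries with a Pearson correlation of 0.96 and ran against IMPACT (-0.93), while PPP1R15B went with EIF2AK2 (0.95) and against DELE1 (-0.93). Among the genes most like EIF2AK4 in this measure, out of 10881 with a mean of at least 100 in both tables, were PPIL2 (0.997) and IRS1 (0.992). The closest to IMPACT was TOM1L1 (0.998), to PPP1R15B GATAD2A (0.997), to EIF2AK1 SMARCA4 (0.998) and to GCN1 EDEM3 (0.995). The closest to EIF2AK2 was LTN1 (0.992), to EIF2AK3 TIPRL (0.994) and to DELE1 PCBP2 (0.994). These are descriptions over 8 libraries that share treatment, line and depth.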

How the data were processed

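Total RNA of 769-P and CAKI-1 cells was sequenced, 2 libraries per group. The authors deposited a normalized signal per gene, 1 table per line: the read count of a gene over the size factor of its library. The submitters' processing notes name Trim Galore, TopHat2 2.1.0, SAMtools 1.3.1, HTSeq 0.6.0, DESeq2 and DESeq and the build hg38, and the annotation and strand setting are not given in the sources used here. Every value (100%, within 0.01 of a read) was a whole multiple of 1 read, so reads were recovered. The size factors, 0.777 to 1.32, equal the median-of-ratios factors.

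Groups came from the labels. Symbols came from GENCODE 29. Genes averaging 1 or more were tested with limma 3.58.1 (R 4.3.3; lmFit, eBayes with trend) on log2(value + 1), which understates changes of low genes, with Benjamini-Hochberg adjustment. The difference between lines was the interaction term over 8 libraries (19406 genes). Kinase shares were compared by exact permutation (scipy 1.17.1). RPKM used merged exon lengths and reads on listed genes. Alternatives were other pseudocounts, filters, scalings, equal depth, a replicate block, edgeR 4.0.16 and DESeq2 1.42.0 on recovered reads, the spread of all 8 libraries, and leaving out each library.

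The members, lists and motifs were chosen with earlier results of these data known. The text names all 8 members, genes of the fixed pathway lists, and by likeness the 3 genes nearest to EIF2AK4 and 1 for each other member. Some genes that this rule or the lists hold are not reported here. The length of the longest coding transcript, the ATF4 readout counts under other settings, and the interferon motif were added after seeing the data. Counting intervals cover counting error only.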

Additional observations from a re-analysis of the deposited data

Results flagged for a closer look

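The BCAA effect differed between the lines by the interaction test (limma, Benjamini-Hochberg adjusted) for 3 of the 8 genes and for 21.1% of all genes. With a mean value of 10 or more, that share was 29.9%. The log2 effect in 769-P minus that in CAKI-1 was -0.43 for PPP1R15B, which rose in CAKI-1 alone by the test within each line. For EIF2AK2 it was -0.28, again with a rise called in CAKI-1. For DELE1 it was 0.27, since it fell more in CAKI-1 than in 769-P. In all 3 the larger change was in CAKI-1, whereas the ATF4 readouts moved more in 769-P.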

How the results depend on the processing

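No alternative moved the median log2 fold change of all genes by more than 0.1. IMPACT in both lines, PPP1R15B and DELE1 in CAKI-1, EIF2AK1 and EIF2AK4 in 769-P kept their calls in all 11 other settings. The members called lower in 769-P went from 2 to 1 with median centering. Those called higher in CAKI-1 went from 4 to 2 with no filter, with equal depth and with the replicate block, and to 1 with quantile normalization. For the difference between lines, 1 member called higher became 0 with the replicate block, and 2 called lower became 1 with it and with median centering. ATF4 readouts called higher in CAKI-1 went from 2 to 1 with quantile normalization. Same-numbered libraries did not deviate together (correlation -0.088 in 769-P and 0.061 in CAKI-1). Pairing by number was thus not shown, though so few libraries cannot exclude it. The cause of these losses was not tested.

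Leaving out 1 library at a time, with the lone sample assumed to vary like the others, members called higher ranged from 0 to 2 in 769-P and in CAKI-1, and those called lower were 1 in 769-P and 0 to 2 in CAKI-1. For the difference, calls ranged from 0 to 1 higher and 1 to 2 lower. ATF4 readouts in CAKI-1 ranged from 0 to 1 higher and 0 to 11 lower. With 1 library fewer, fewer degrees of freedom are left, and calls over all genes fell as well (to 0% in CAKI-1 without replicate 1 of the group without BCAA, with 4487 genes at an unadjusted p under 0.05 in limma).

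Signs turned for effects near 0. EIF2AK2 in 769-P was -0.011 with quantile normalization and -0.033 to 0.108 over left-out libraries, and PPP1R15B in 769-P -0.017 to 0.097. The difference for EIF2AK1 was -0.010 at equal depth and -0.025 to 0.033 over left-out libraries, for EIF2AK3 -0.054 to 0.179, for GCN1 -0.139 to 0.032 and for IMPACT -0.209 to 0.0072. The difference in the share of EIF2AK2 was -0.221 points with BCAA alone (1.54 over all libraries), and that of EIF2AK4 -0.116 without BCAA alone (0.673). Depth limits EIF2AK3 most, at 407 to 951 reads.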
